A study of Mus musculus with 12 samples.

Results

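The myelin and oligodendrocyte genes described here are Mbp, Mog, Mag, Mobp, Cnp, Mal, Cldn11, Ermn and Opalin, a set of 9 genes named for their place in the myelin sheath and drawn up with earlier results of these data known. All 9 were found among the 35501 genes of the hippocampal RNA-Seq values, with 42 transcripts out of 115270. Hippocampi came from adult male C57BL/6 mice (C57BL/6J in the study's methods) at postnatal day 70, with 3 mice in each of 4 groups. Control mice had dams that drank water and were left undisturbed in the nest. Ethanol mice had dams offered 10% ethanol in water for 10 days ahead of mating, during pregnancy and up to postnatal day 10, so that access ran into the days of separation, and these pups were otherwise left undisturbed. Stress mice had dams that drank water, and were taken from dam and littermates for 3 h a day on postnatal days 2 to 14. Ethanol + stress mice had both treatments. Dams drank by choice, part of each litter was assigned to stress, and the labels do not say which mice were siblings, so p-values measure the spread between these mice whatever its source.

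Myelin is the lipid-rich membrane that oligodendrocytes wrap around axons in the brain and spinal cord, where it speeds conduction and supplies the axon. Its compact layers are held together by basic and membrane-spanning proteins, while other proteins sit in the cytoplasmic channels, on the outer surface or on the inner face that touches the axon. In the hippocampus, myelinated axons run mainly in the alveus, the fimbria and the outer layers, so myelin RNA is a small part of the tissue's RNA and depends on how much white matter is in a dissection. Myelination in mice takes place mostly after birth and continues into adulthood.

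The values are TPM, a unit of transcript abundance that is scaled for transcript length, so that levels can be set beside each other between genes. The libraries had about 12045400 to 14968300 read pairs, an estimate recovered from the low values. Library sums ran from 889222 to 1173650 TPM, and the highest 3 sums were those of ethanol mouse 2 and of ethanol + stress mice 2 and 3, in which the 20 highest transcripts held 27.2% to 29.2% of the total. Blood genes (5 of 5, haemoglobins and Alas2) were called higher in ethanol and in ethanol + stress mice than in controls, against 0.516% and 0.695% of all genes called higher, with summed levels of 1603 to 2022 TPM in controls, 3146 to 6815 TPM in ethanol mice, 2593 to 3392 TPM in stress mice and 2454 to 6480 TPM in ethanol + stress mice. Choroid plexus genes (led by Ttr) summed to between 43.4 and 7271 TPM, with all 9 fold changes below 0 in ethanol mice (median log2 fold change -0.72) and above 0 in stress (1.06) and ethanol + stress mice (0.35), and 0 of 9 called in each, against 0.679%, 0.51% and 0.972% of all genes called. Single mice went the other way: choroid plexus genes summed to 3548 TPM in ethanol mouse 1 and 210 TPM in ethanol + stress mouse 3, beside 624 to 1856 TPM in controls. The part of blood and choroid plexus in the results below was not tested.

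The levels fitted myelin of the central nervous system, which does not by itself check the label of hippocampus. All 9 genes were above 0 in every library, as were all 39 genes of a wider list for myelin and mature oligodendrocytes, which summed to between 2794 and 5337 TPM. Genes of Schwann cells, which make the myelin of peripheral nerves, were each under 1 TPM on average (7 of 7). The members summed to between 2489 TPM in ethanol mouse 3 and 5616 TPM in ethanol + stress mouse 2.

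By mean level over the 12 mice, Mbp came first at 2372 TPM and Mobp second at 845 TPM. Cnp (267 TPM) and Mal (258 TPM) followed, with a Mal to Cnp ratio of 0.841 to 1.29, so the order of that pair changed from mouse to mouse. Mag (215 TPM), Cldn11 (151 TPM), Mog (78.4 TPM), Ermn (44.4 TPM) and Opalin (31.6 TPM) came next, and each was above the following one in all 12 mice.

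Promoter sequences are shown for Mag and Cnp, which moved together most tightly by rank, and for Mobp, which went with them less tightly. Of the 9 members, 8 have a promoter in the RefSeq set (GRCm38.p6), and the windows run from -250 to -51 relative to the RefSeq start. Capitals mark matches on either strand to ACAAAG, the core recognised by SOX-family factors such as SOX10, and to CTGGCAC or CTGGTAC, the core recognised by MYRF, a factor of myelinating oligodendrocytes. The motifs share no letters in any of these windows.
Mag, chr7:30914914-30915113, minus strand: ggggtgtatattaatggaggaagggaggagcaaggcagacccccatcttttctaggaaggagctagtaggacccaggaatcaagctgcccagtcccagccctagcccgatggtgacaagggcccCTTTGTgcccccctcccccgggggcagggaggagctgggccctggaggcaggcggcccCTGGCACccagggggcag
Cnp, chr11:100574689-100574888, plus strand: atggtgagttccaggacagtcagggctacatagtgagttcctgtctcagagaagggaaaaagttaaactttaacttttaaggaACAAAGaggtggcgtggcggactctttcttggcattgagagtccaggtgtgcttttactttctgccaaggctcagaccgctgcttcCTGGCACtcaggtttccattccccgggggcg
Mobp, chr9:120149492-120149691, plus strand: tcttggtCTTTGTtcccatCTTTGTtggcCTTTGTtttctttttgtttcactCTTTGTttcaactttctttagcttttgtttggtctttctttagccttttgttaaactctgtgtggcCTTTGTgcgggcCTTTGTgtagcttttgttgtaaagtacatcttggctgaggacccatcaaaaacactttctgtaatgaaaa

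Mag and Cnp each held 1 match to either motif, while Mobp held 6 matches to the SOX core in a stretch rich in T and no match to the MYRF core. Of the 8 members, 4 had the SOX core (Mag, Mobp, Cnp and Opalin), against 13.57% of 32851 promoter windows of the same length. The MYRF core was found in 3 of the 8 (Mog, Mag and Cnp), against 4.83% of all windows. At least 3 SOX cores, as in Mobp, were found in 0.1% of windows. A match is a run of letters and not a measured binding site.

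**Figure D1:**
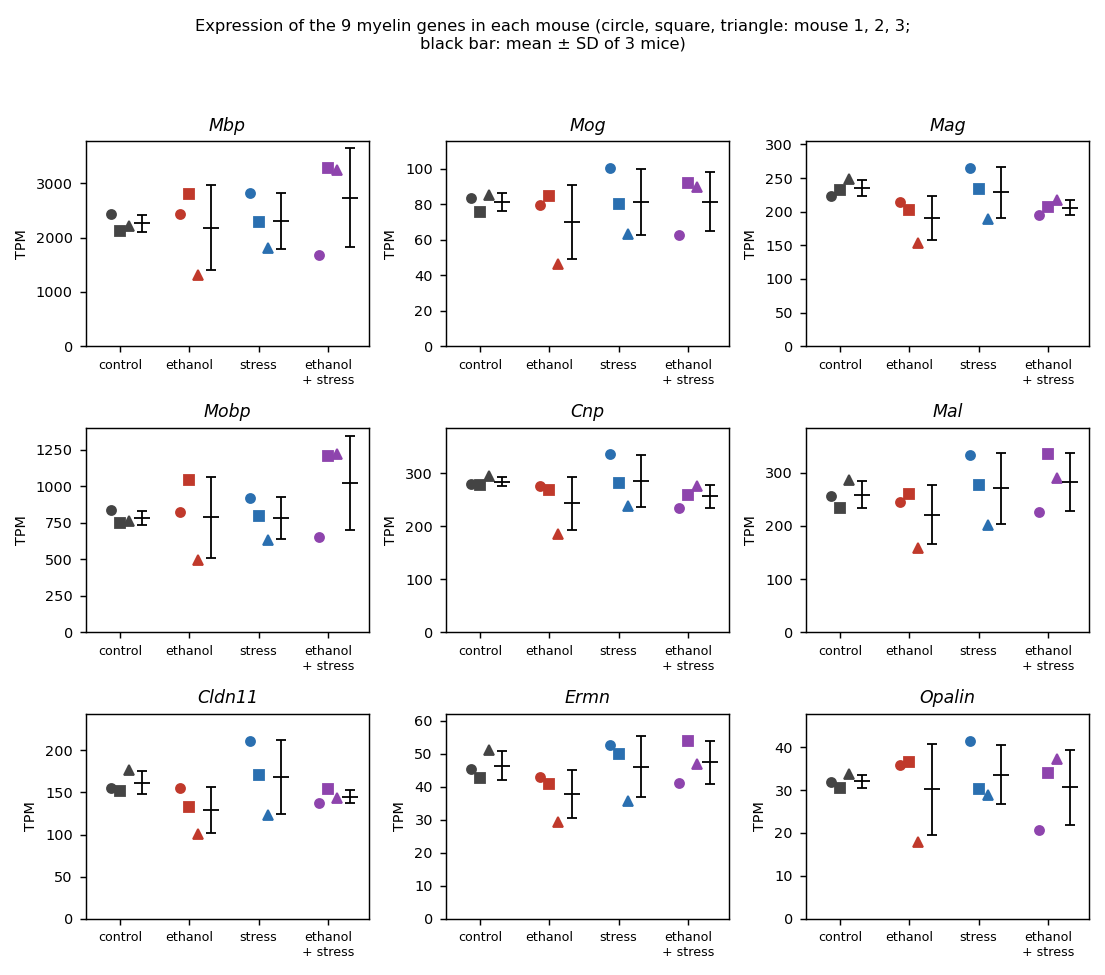
Expression in TPM (vertical axis, from 0) of each of the 9 genes in each mouse, by group; circles, squares and triangles are mice 1, 2 and 3, and black bars are the mean ± SD of 3 mice. The 3 controls lie close together, and ethanol mouse 3 is the lowest of the 12 for every gene.

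Mbp encodes myelin basic protein, which pulls the cytoplasmic faces of the membrane together. Its level was 2441, 2122 and 2223 TPM in the control mice, 2442, 2806 and 1304 TPM in the ethanol mice, 2819.6, 2293 and 1806 TPM in the stress mice, and 1679.5, 3278 and 3248 TPM in the ethanol + stress mice. The treated groups each had mice above and below all of the controls.

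Mobp, another small basic protein of compact myelin, was at 835, 751 and 762 TPM in controls. It was at 825, 1042 and 494 TPM in ethanol mice, 922, 799.7 and 631 TPM in stress mice, and 653, 1204 and 1218 TPM in ethanol + stress mice. As with Mbp, 2 ethanol + stress mice were above every other mouse and the third was below all controls.

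Mal, a proteolipid that takes part in sorting membrane to the sheath, was at 257, 234 and 285 TPM in controls, 245, 259.8 and 158 TPM in ethanol mice, 334, 277 and 201 TPM in stress mice, and 226, 334 and 289.6 TPM in ethanol + stress mice. Cldn11, the claudin that forms tight junctions between the wraps, was at 156, 152 and 177 TPM in controls, 155, 133 and 100.97 TPM in ethanol mice, 212, 171 and 122.7 TPM in stress mice, and 138, 154 and 143 TPM in ethanol + stress mice. For both genes the ranges of every group overlapped that of the controls.

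Cnp encodes the phosphodiesterase of the cytoplasmic channels of myelin, which keeps them open. It was at 279, 278 and 294 TPM in controls, 276, 268 and 186 TPM in ethanol mice, 335, 281 and 238 TPM in stress mice, and 234, 259 and 276 TPM in ethanol + stress mice. Mag, the adhesion protein on the inner face of the sheath that binds the axon, was at 224, 233 and 248 TPM in controls, 215, 203 and 153 TPM in ethanol mice, 265, 234 and 189 TPM in stress mice, and 195, 207 and 217 TPM in ethanol + stress mice. For these 2 genes, unlike the other 7, all 6 mice of the ethanol and ethanol + stress groups were below all 3 controls. That order was found in 0.885% of all genes tested. For Cnp the gap was narrow, with ethanol mouse 1 at 275.6 TPM and ethanol + stress mouse 3 at 276.0 TPM, beside 278.0 TPM in control mouse 2.

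Mog, on the outermost surface of the sheath, was at 83.4, 75.7 and 85.0 TPM in controls, 79.4, 84.4 and 46.1 TPM in ethanol mice, 100.2, 79.9 and 63.2 TPM in stress mice, and 62.3, 92.1 and 89.5 TPM in ethanol + stress mice. Ermn, an actin-binding protein of late oligodendrocyte maturation, was at 45.4, 42.6 and 51.2 TPM in controls, 42.9, 40.8 and 29.4 TPM in ethanol mice, 52.7, 49.9 and 35.7 TPM in stress mice, and 41.1, 54.0 and 46.9 TPM in ethanol + stress mice. Opalin, a membrane glycoprotein particular to oligodendrocytes of the central nervous system, was at 31.8, 30.6 and 33.7 TPM in controls, 36.0, 36.6 and 18.0 TPM in ethanol mice, 41.6, 30.3 and 28.9 TPM in stress mice, and 20.8, 34.0 and 37.3 TPM in ethanol + stress mice. All 3 genes had at least 1 mouse below the controls in each treated group.

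Ethanol alone was compared with control to ask whether myelin RNA differed in adulthood. All 9 genes had lower fitted levels in ethanol mice, and none passed the threshold of an unadjusted p under 0.01 (limma), which 0.679% of 18419 genes passed in either direction. The median log2 fold change of the 9 was -0.26, beside 0.02 over all genes tested, and in whole tissue fewer oligodendrocytes cannot be told apart from less RNA in each. Cldn11 (-0.33 ± 0.19, SE), Mag (-0.32 ± 0.14) and Ermn (-0.31 ± 0.17) had the most negative log2 fold changes, and Mobp (-0.06 ± 0.29) was nearest to 0. Mag was the 1 gene with an unadjusted p below 0.05 (limma, adjusted p = 0.996, against 3.64% of all genes), with a 95% confidence interval of -0.63 to -0.01. After rescaling to a common total Mag was called, at -0.40 (limma, adjusted p = 1.0, 1 of 9 against 0.625% of all genes), and 4 of the 9 genes (Mag, Cnp, Ermn and Cldn11) had an unadjusted p under 0.05, beside 2.85% of all genes. With the 20 highest transcripts left out, 3 of the 9 did, beside 3.24%. The members varied together across the mice, so such counts, here and below, are not counts of independent genes. For Mbp the interval ran from -0.82 to 0.58.

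These values rested on 1 mouse. Without ethanol mouse 3, the median log2 fold change of the 9 genes against control was -0.03 (0.04 over all genes), and Mbp, Mobp, Opalin and Mog had fold changes above 0. Mag was then at -0.17 ± 0.13 (limma, adjusted p = 0.703) and Cnp at -0.06 ± 0.13, with Cldn11 at -0.17 ± 0.18 and Ermn at -0.14 ± 0.17. The position of Mag and Cnp below the controls did not rest on that mouse, since all 3 ethanol mice were below all 3 controls. Among all genes tested, 3.19% had every ethanol mouse below every control, 4.62% had every ethanol + stress mouse below every control, and 0.885% had both. Mag and Cnp were singled out here after their values were seen.

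**Figure D2:**
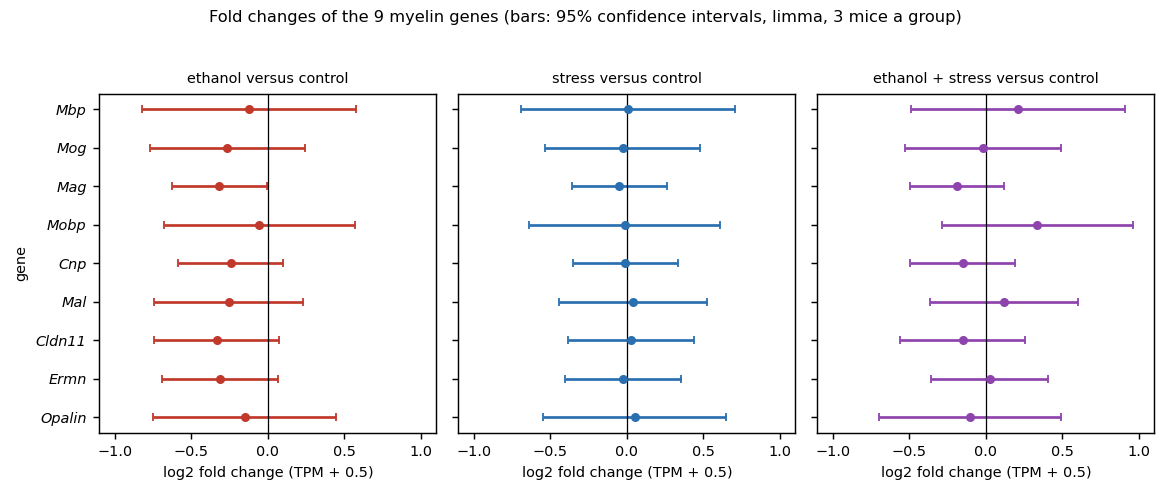
Log2 fold change of each of the 9 genes against control on the log2(TPM + 0.5) scale (horizontal axis), in 3 panels for ethanol, stress and ethanol + stress mice; points are limma estimates and bars are 95% confidence intervals (3 mice per group). The points for ethanol are all below 0, those for stress lie close to 0 and those for ethanol + stress lie on both sides, and every interval except that of Mag in ethanol mice includes 0.

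Maternal separation alone left the group means of the 9 genes close to those of the controls. The log2 fold changes were between -0.05 (Mag) and 0.05 (Opalin), with a median of -0.01 beside 0.00 over all genes, and 4 of the 9 were above 0. None was called (limma, adjusted p = 0.9998 for each, 0 of 9 with an unadjusted p under 0.05), against 0.51% of all genes. The intervals were wide relative to these estimates, from -0.36 to 0.26 for Mag and from -0.69 to 0.71 for Mbp. The mice within the group differed more than the groups did: stress mouse 1 was above all controls for all 9 genes and stress mouse 3 below all controls for all 9. Without stress mouse 1 the median was -0.14, and without stress mouse 3 it was 0.15.

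Ethanol + stress mice had members on both sides of the controls. Mobp (0.33 ± 0.29), Mbp (0.21 ± 0.32), Mal (0.12 ± 0.22) and Ermn (0.02 ± 0.17) had log2 fold changes above 0, of which Mal (-0.02) and Ermn (-0.11) turned below 0 after rescaling to a common total, which took Mobp to 0.20 and Mbp to 0.08. Mag (-0.19 ± 0.14), Cldn11 (-0.15 ± 0.19), Cnp (-0.15 ± 0.16), Opalin (-0.10 ± 0.27) and Mog (-0.02 ± 0.23) had fold changes below 0, and were at -0.32, -0.29, -0.29, -0.24 and -0.16 after rescaling. The median was -0.02 beside 0.02 over all genes, and 0 of 9 were called (limma, lowest adjusted p = 0.791, 0 of 9 with an unadjusted p under 0.05), against 0.972% of all genes. After rescaling the median was -0.16 beside -0.09 over all genes, and 2 of 9 (Mag and Cnp) had an unadjusted p under 0.05, beside 4.24% of all genes. Ethanol + stress mouse 1 was below all controls for all 9 genes, and the median was 0.15 without it. Leaving it out took Mobp to 0.63 and Mbp to 0.53, whereas Mobp was at 0.18 without ethanol + stress mouse 3 and Mbp at 0.05 without ethanol + stress mouse 2. Cnp was at -0.09 without ethanol + stress mouse 1, and Cldn11 at -0.08 without control mouse 3. The comparisons with control share the same 3 control mice.

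The interaction asked whether the difference made by ethanol changed with separation. It was above 0 for 8 of the 9 genes, with a median of 0.27 (-0.01 over all genes), and none was called (limma, adjusted p = 1.0 for each, 0 of 9 with an unadjusted p under 0.05), against 0.461% of all genes. Its largest values were 0.40 ± 0.40 for Mobp and 0.36 ± 0.25 for Ermn, and it was 0.00 ± 0.38 for Opalin. Without ethanol mouse 3 the median interaction was 0.00 and that of Mobp 0.10, and without stress mouse 3 that of Ermn was 0.19. Without ethanol + stress mouse 1 that of Mobp was 0.70.

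Averaged over mice with and without separation, the ethanol effect had a median of -0.13 over the 9 genes (0.02 over all genes) and called 0 of 9, against 1.12% of all genes. Mag was at -0.23 ± 0.10 (limma, adjusted p = 0.759, the 1 gene with an unadjusted p under 0.05, beside 5.8% of all genes), Cldn11 at -0.26 ± 0.13 and Cnp at -0.19 ± 0.11, while Mobp (0.15 ± 0.20) and Mbp (0.04 ± 0.23, but -0.06 after rescaling to a common total) were above 0. Cnp was at -0.10 and Mobp at 0.30 without ethanol mouse 3, Mobp was at 0.03 without ethanol mouse 2, and Cldn11 was at -0.17 without stress mouse 1. When the libraries were rescaled to a common total, which moved single libraries by -0.21 to 0.17 in the median log2 value, Mag (-0.33 ± 0.09) and Cnp (-0.29 ± 0.09) were called (limma, adjusted p = 0.748 for both), 2 of 9 against 0.695% of all genes, whose median was then -0.06, and 3 of 9 had an unadjusted p under 0.05, beside 4.46%. The averaged stress effect was above 0 for all 9 genes, with a median of 0.11 (0.00 over all genes), and called 0 of 9, against 0.586% of all genes. That median was 0.00 without ethanol mouse 3.

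**Figure D3:**
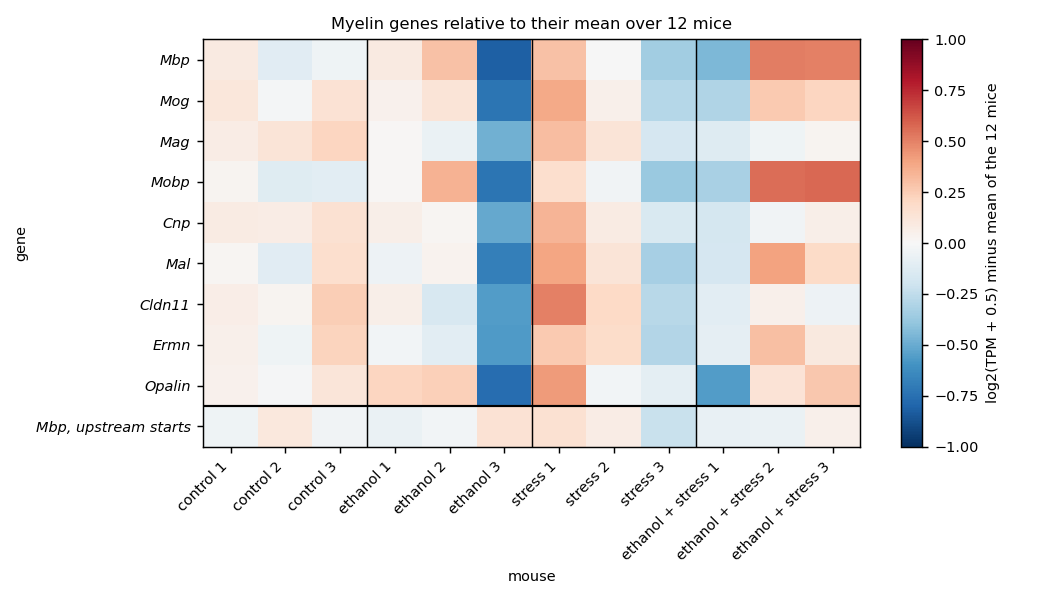
Log2(TPM + 0.5) of each gene in each mouse minus the gene's mean over the 12 mice (colour, blue below and red above the mean), with mice in columns and genes in rows. The bottom row is the sum of the 4 Mbp transcripts with upstream starts. Ethanol mouse 3 is blue in all 9 gene rows and stress mouse 1 red in all 9, while the bottom row stays near white.

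The largest differences were between mice and not between groups. Ethanol mouse 3 had the lowest value of all 12 mice for all 9 genes. Stress mouse 3 was among the lowest 3 mice for all 9 genes, and ethanol + stress mouse 1 for 7 of them. Stress mouse 1 had the highest value for 5 genes (Mog, Mag, Cnp, Cldn11 and Opalin), ethanol + stress mouse 2 for 3 (Mbp, Mal and Ermn) and ethanol + stress mouse 3 for Mobp. The ratio of the highest to the lowest mouse ran from 1.73 for Mag to 2.51 for Mbp. Controls stayed close to each other, with an SD of 163 TPM on a mean of 2262 TPM for Mbp, beside 784 on 2184 TPM in ethanol mice.

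The genes varied together across the 12 mice. Over the 36 pairs, Pearson's r of log2(TPM + 0.5) had a median of 0.85 and a range of 0.48 to 0.98, and Spearman's rho had a median of 0.69 and a range of 0.36 to 0.98. After rescaling to a common total the median r was 0.74. On the values as deposited, both adjusted permutation p-values were below 0.05 for 20 of the 36 pairs. On deviations from the group means the median r was 0.90, so the shared variation was present within groups. Part of it rested on the extreme mice: without the 2 mice farthest from the median, chosen for each pair, r had a median of 0.68 and a range of 0.06 to 0.98, and 26 of the 36 pairs were over 0.5.

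The pairs fell into unequal degrees of likeness. Mbp and Mobp had r = 0.98 and rho = 0.97 (adjusted permutation p = 9e-05 and 0.00012), and r was 0.98 without the 2 farthest mice. Mag and Cnp had r = 0.97 and rho = 0.98 (adjusted permutation p = 9e-05 and 0.00012), and r was 0.91 without the 2 farthest mice. Mag and Mobp had r = 0.50 and rho = 0.36 (adjusted permutation p = 0.0987 and 0.257), and r fell to 0.06 without the 2 farthest mice, so that relation rested on them. Cldn11 went with Mag (r = 0.96, rho = 0.92, adjusted permutation p = 0.00012 and 0.00072) and Mal with Ermn (r = 0.97, rho = 0.91, adjusted permutation p = 9e-05 and 0.00072).

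**Figure D4:**
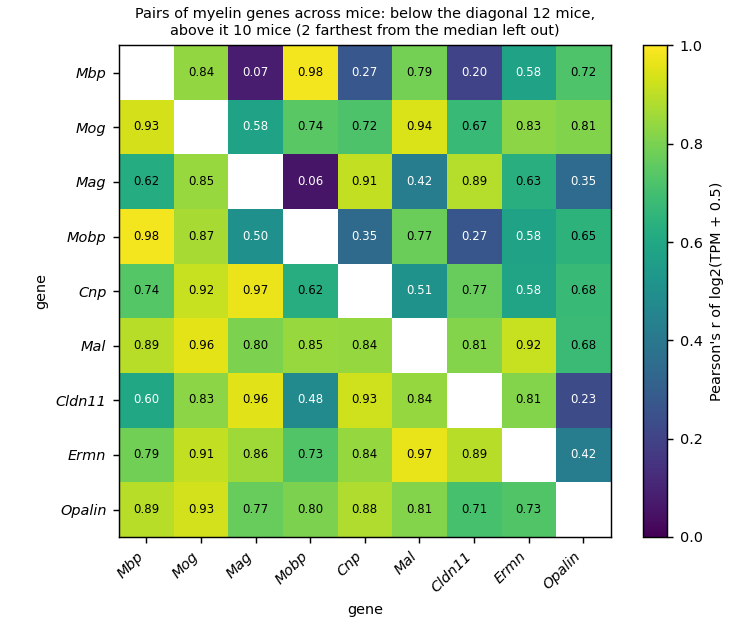
Pearson's r of log2(TPM + 0.5) between pairs of the 9 genes (colour and number in each cell), below the diagonal over 12 mice and above it over 10 mice, with the 2 farthest from the median of the row or column gene that comes first left out. Mbp with Mobp and Mag with Cnp stay above 0.9 in both parts, while Mag with Mobp falls from 0.50 to 0.06.

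The ratio of Mbp to Cnp was not constant. It was 7.56 to 8.74 in controls, 8.86, 10.5 and 7.02 in ethanol mice, 8.41, 8.17 and 7.59 in stress mice, and 7.18, 12.7 and 11.8 in ethanol + stress mice. The 3 highest ratios were in the 3 libraries with the highest sums. Over the 12 mice the log2 ratio followed the log2 library sum with r = 0.91 and rho = 0.87 (adjusted permutation p = 0.00217 and 0.00342, over 26 relations), and r was 0.91 without the 2 farthest mice. The Mobp to Cnp ratio did likewise (r = 0.87, rho = 0.69, adjusted permutation p = 0.00432 and 0.032). Mag to Cnp varied least, from 0.757 to 0.843, and was lower where the library sum was higher (r = -0.81, rho = -0.78, adjusted permutation p = 0.00432 and 0.0108).

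Library sums and the balance of long and short transcripts moved together with some of the members. Mbp itself followed the library sum (r = 0.83, rho = 0.85, adjusted permutation p = 0.00407 and 0.00342), as did Mobp (r = 0.88, rho = 0.85, adjusted permutation p = 0.00217 and 0.00342), Opalin (r = 0.68, rho = 0.85, adjusted permutation p = 0.0368 and 0.00342) and Mog (r = 0.63, rho = 0.69, adjusted permutation p = 0.0468 and 0.032). Mal (r = 0.57, adjusted permutation p = 0.0922), Ermn (r = 0.36, 0.377), Cnp (r = 0.35, 0.377), Mag (r = 0.16, 0.713) and Cldn11 (r = 0.12, 0.713) did not pass the threshold, and the differences between members were not tested. The log2 difference between long and short transcripts, -0.25 to -0.40 in the libraries of ethanol mouse 2 and ethanol + stress mice 2 and 3, was also lower where Mbp was higher (r = -0.81, rho = -0.86, adjusted permutation p = 0.00432 and 0.00342). The part of the library sums in the fold changes of these genes was not tested.

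**Figure D5:**
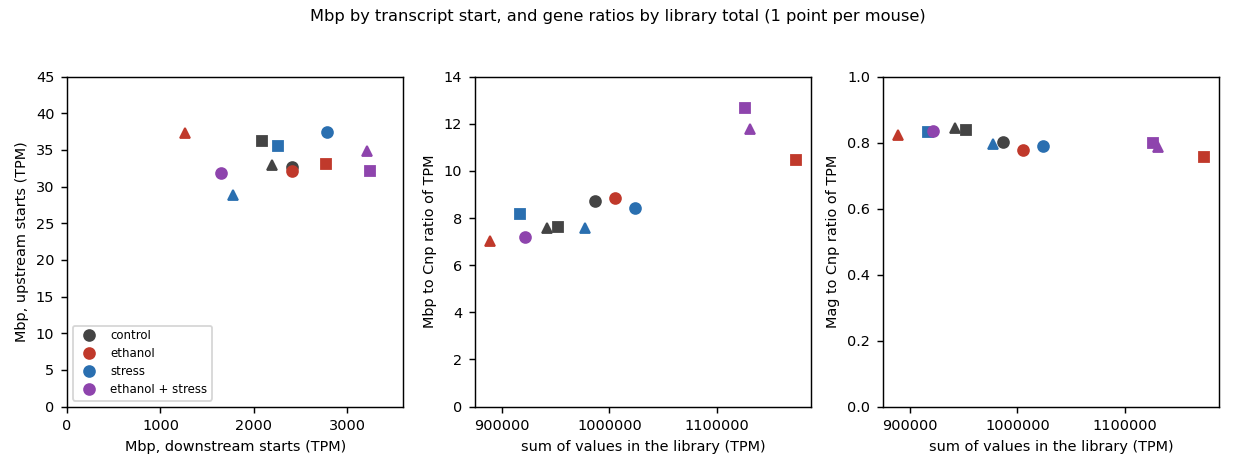
Left, summed TPM of Mbp transcripts with upstream starts (vertical) against those with downstream starts (horizontal); middle and right, the Mbp to Cnp and Mag to Cnp ratios of TPM against the sum of the library in TPM; 1 point per mouse, with colours for groups and shapes for mice 1 (circle), 2 (square) and 3 (triangle). Upstream transcripts stay between 28.8 and 37.5 TPM, the Mbp to Cnp ratio is highest in the 3 libraries with the highest sums, and Mag to Cnp stays between 0.757 and 0.843.

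Mbp is transcribed from more than 1 start. Of its 16 transcripts, 4 (Mbp-201, Mbp-205, Mbp-208 and Mbp-213) start at -79370 to -79146 bp relative to the start of Mbp-211. Transcripts of this kind are known as golli and are also made in neurons and immune cells. The upstream transcripts summed to 28.8 to 37.5 TPM, with a coefficient of variation of 7.6% over the 12 mice. The 12 downstream transcripts, 11 of them annotated as protein-coding and among them those of the classic myelin proteins, summed to 1267 to 3246 TPM, with a coefficient of variation of 25.8%. In ethanol mouse 3 the downstream sum was the lowest of all mice while the upstream sum, 37.4 TPM, was the second highest. No relation between the sums passed the threshold (r = -0.005, rho = 0.06, permutation p = 0.989 and 0.852), and r was 0.36 without the 2 farthest mice.

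Of the 42 member transcripts, 36 passed the filter on low values, and the other 6 had means of at most 1.39 TPM. Of the 42, 15 held at least 5% of their gene. No member transcript was called in ethanol mice (0 of 36, against 1.26% of 59852 transcripts), in stress mice (0 of 36, against 0.914%) or in ethanol + stress mice (0 of 36, against 1.21%) by limma, and 1, 0 and 0 of them had an unadjusted p under 0.05, beside 5.43%, 3.88% and 5.57% of all transcripts. After rescaling to a common total the counts were 7, 0 and 1, beside 5.1%, 4.09% and 5.15%.

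Mbp-211 held 66.1% of Mbp (128 codons), with Mbp-212 (19.2%), Mbp-209 (6.33%) and Mbp-204 (5.03%) behind it. Mbp-204 was at 91.2, 96.7 and 86.0 TPM in controls and at 116, 122 and 127 TPM in stress mice, so that all 3 stress mice were above all 3 controls. Of the 36 member transcripts tested, 1 had that order, beside 4.1% of all transcripts. The log2 fold change of Mbp-204 was 0.41 ± 0.40 (limma, adjusted p = 1.0). In ethanol mice Mbp-211 was at -0.19 ± 0.34 and Mbp-212 at 0.04 ± 0.31. Mbp-211 was at 1589, 1807 and 823 TPM in ethanol mice 1, 2 and 3, beside 1425 to 1647 TPM in controls. Mbp-212 was at 487, 576 and 250 TPM, beside 358 to 445 TPM. For both, ethanol mouse 3 alone was below the controls.

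Mag was spread over Mag-203 (42.1%), Mag-205 (35.2%) and Mag-207 (16.5%). Mag-203 and Mag-207 are annotated with 582 and 627 codons, the lengths of the small and large forms of the protein. After ethanol alone, Mag-203 was at -0.32 ± 0.18 on the log2 scale, Mag-205 at -0.34 ± 0.17 and Mag-207 at -0.24 ± 0.17, so the 3 main transcripts had fold changes of one sign. Ethanol mouse 3 had a large part in them: Mag-203 was at 98.6, 83.1 and 61.3 TPM in ethanol mice 1, 2 and 3, beside 94.7 to 105 TPM in controls. In ethanol + stress mice the 3 transcripts were at -0.19 ± 0.18, -0.23 ± 0.17 and -0.06 ± 0.17.

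Cnp was divided between Cnp-201 (56.8%), which encodes the protein, and Cnp-204 (41.2%), which is annotated without a coding frame. Their log2 fold changes in ethanol mice were -0.25 ± 0.15 and -0.22 ± 0.17. Cnp overlaps Dnajc7 on the opposite strand over 8912 bp, and although the libraries were stranded, use of the strand in the authors' counting is not given in the sources used here. Mobp-204, annotated as a target of nonsense-mediated decay, held 92.1% of Mobp. Its log2 fold change was -0.05 ± 0.30 in ethanol mice and 0.34 ± 0.30 in ethanol + stress mice. Mobp-204 was at 688 to 766 TPM in controls, and at 766.5, 968 and 450 TPM in ethanol mice. In ethanol + stress mice it was at 600, 1111 and 1130 TPM, so both groups had mice above and below the controls. Mog-201 held 95.005% of Mog and Mal-202 held 99.9% of Mal. Cldn11, Ermn and Opalin each had 1 transcript in the values.

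The genes with the pattern most like the mean of the 9 members were sought among 14436 other genes with a mean of at least 1 TPM. Among the 10 most alike, over 12 mice, were Clic4 (r = 0.96), Sept4 (0.95), Gjc3 (0.95), Ndrg1 (0.94), Sirt2 (0.94), Ugt8a (0.94), Lpar1 (0.93), Gkap1 (0.93) and Efhd1 (0.92). Of these 9 genes, 5 were in the wider list for myelin and mature oligodendrocytes, and all 9 had their lowest level in ethanol mouse 3, as the mean of the members that chose them did. The median r with the members was 0.83 over the 39 genes of that list, beside 0.02 over all genes compared, and 21 of the 39 were over 0.8, beside 93 of all 14436.

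Against control, the wider list had 1 of 39 genes called lower and 0 higher in ethanol mice, and 0 of 39 in stress and in ethanol + stress mice. Over all genes tested, 0.163% were called lower in ethanol mice, and 0.51% and 0.972% were called in either direction in stress and in ethanol + stress mice. The called gene was Gpr37, a receptor of myelinating oligodendrocytes, at 38.03, 39.7 and 40.4 TPM in controls and 34.6, 30.8 and 30.4 TPM in ethanol mice. All 3 ethanol mice were below all controls, as for 3.19% of all genes (log2 fold change -0.30 ± 0.09, limma, adjusted p = 0.996). Gpr37 was also the 1 of 39 called in the averaged ethanol effect (-0.25 ± 0.06, limma, adjusted p = 0.759), against 1.12% of all genes. The median of the list in ethanol mice was -0.16, beside 0.02 over all genes. Its sum was 4639, 4158 and 2794 TPM in ethanol mice 1, 2 and 3, beside 4030 to 4513 TPM in controls. Only ethanol mouse 3 was thus below the controls by that sum, and ethanol mouse 1 was above them.

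None of the 12 transcription factors of the lineage, the 15 genes of precursors and newly formed oligodendrocytes, the 21 genes of cholesterol synthesis or the 14 axonal partners of myelin was called in any of the 3 comparisons with control, against 0.679%, 0.51% and 0.972% of all genes. Their median log2 fold changes were -0.05, -0.11, -0.05 and -0.19 in ethanol mice, 0.05, -0.02, -0.03 and -0.03 in stress mice, and -0.03, -0.12, -0.04 and -0.27 in ethanol + stress mice. Of the axonal partners, 1 of 14 was above 0 in ethanol + stress mice, but not every mouse of that group was low. Their sum was 1478, 1072 and 1180 TPM in ethanol + stress mice 1, 2 and 3, beside 1415 to 1468 TPM in controls. In the libraries of ethanol + stress mice 2 and 3, the log2 difference between long and short transcripts was -0.34 and -0.25. Its part in these values was not tested. The summed level of the transcription factors, led by Zeb2 (mean 118 TPM), was between 287 and 329 TPM over the 12 mice, and that of the precursor genes between 408 and 475 TPM. Single factors varied more than their sum, as with Nkx6-2 (6.22 to 15.5 TPM), Myrf (4.05 to 7.64 TPM) and Nkx2-2 (1.03 to 3.38 TPM). The transcription factors and precursor genes followed the members weakly, with a median r of 0.24 and 0.12. Olig1 (0.75) and Enpp6 (0.78), a marker of newly formed oligodendrocytes, were the highest in those lists.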

How the data were processed

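RNA-Seq values of 12 hippocampi were used as deposited: TPM per transcript, a signal that the authors made from paired-end reads of stranded, rRNA-depleted libraries with kallisto against mouse transcripts (mm10) and scaled between libraries, with no filter. Tool versions are not given in the sources used here. The identifiers of 113492 transcripts, of 115270, exist in GENCODE vM21, and their values were summed to 35501 genes. Unmatched ones held 0.551% to 0.611% of a library. Depth was recovered from steps in the low values (86.6% to 90.6% whole within 0.2 read pairs). A feature was tested where 6 or more libraries reached 0.1 TPM. The test was limma 3.58.1 (lmFit, eBayes with trend) under R 4.3.3 on log2(TPM + 0.5), in 1 model of the 4 groups, two-sided, with calls at an unadjusted p under 0.01, the study's threshold. Adjusted p are Benjamini-Hochberg values over all features. The fit was tested on simulated data. Fold changes are on the log2(TPM + 0.5) scale, which understates low genes. Correlations used 100000 permutations. Genes named were all 9 members, transcripts with at least 5% of their gene, called genes of other lists and the 10 genes most alike, of which 9 are reported here. Members and lists were chosen with earlier results of these data known. Promoters are from RefSeq. Alternatives were other pseudocounts, filters, scalings, fits and left-out libraries.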

Additional observations from a re-analysis of the deposited data

How the results depend on the processing

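The count of members called stayed at 0 in most alternatives. After rescaling to a common total it was 1 in ethanol mice (Mag, against 0.625% of all genes) and 2 in the averaged ethanol effect (Mag and Cnp, 0.695%), and with the 20 highest transcripts left out it was 1 in the averaged ethanol effect (Mag, 0.794%). Leaving out 1 library at a time, it ran from 0 to 1 in the averaged ethanol effect (Cldn11, without stress mouse 3, 1.03% of all genes), as did the count of member transcripts in ethanol mice (Mobp-203 without ethanol mouse 2, 0.991% of all transcripts, and Mbp-204 without ethanol mouse 3, 1.42%). With fits of only the groups compared, 1 member transcript was called in ethanol mice (Mbp-215, 1.36%) and 1 in stress mice (Mbp-204, 1.16%). The median log2 fold change of the members became -0.34 (ethanol, -0.05 over all genes), -0.16 (ethanol + stress, -0.09 over all genes) and -0.23 (averaged ethanol effect, -0.06 over all genes) after rescaling, and -0.10 (ethanol + stress, -0.05 over all genes) without the 20 highest transcripts. Leaving out 1 library at a time, it ran from -0.36 to -0.032 (ethanol), -0.14 to 0.15 (stress), -0.12 to 0.15 (ethanol + stress), -0.0026 to 0.45 (interaction), -0.21 to 0.0089 (averaged ethanol effect) and 0.0026 to 0.21 (averaged stress effect). The median r between members was 0.61 when the same 2 mice, those farthest from the median of the members' mean (ethanol mouse 3 and stress mouse 3), were left out of every pair. The causes were not tested. Of 1053 fold changes of single members under other settings, 67 changed sign, none of them called.

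In ethanol mice, fits that each left out 1 library gave log2 fold changes for Mobp from -0.29 to 0.25, Mbp from -0.34 to 0.21, Opalin from -0.32 to 0.18 and Mog from -0.42 to 0.010. In stress mice they gave Cnp from -0.13 to 0.11, Ermn from -0.13 to 0.15, Mal from -0.13 to 0.24, Mobp from -0.14 to 0.14, Mag from -0.16 to 0.083, Cldn11 from -0.15 to 0.24, Mbp from -0.15 to 0.17, Opalin from -0.11 to 0.15 and Mog from -0.19 to 0.14. In ethanol + stress mice, they gave Ermn from -0.074 to 0.12, Mal from -0.011 to 0.27, Opalin from -0.26 to 0.15 and Mog from -0.12 to 0.16. In the interaction, they gave Cnp from -0.080 to 0.23, Cldn11 from -0.056 to 0.34, Mbp from -0.0082 to 0.65, Opalin from -0.33 to 0.25 and Mog from -0.0026 to 0.45. In the averaged ethanol effect, they gave Mal from -0.19 to 0.023, Mbp from -0.067 to 0.21, Opalin from -0.24 to 0.013 and Mog from -0.21 to 0.0089. In the averaged stress effect, they gave Cnp from -0.049 to 0.10, Mag from -0.034 to 0.11, Opalin from -0.12 to 0.18 and Mog from -0.029 to 0.20.
Rescaling to a common total took Mbp to -0.011 in stress mice and -0.058 in the averaged ethanol effect, Ermn to -0.11 and Mal to -0.018 in ethanol + stress mice. Such scalings move all genes of a library by about the same factor. Leaving out the 20 highest transcripts took Mbp to -0.013 in both of the former and Ermn to -0.055 in ethanol + stress mice. Size factors took Ermn to -0.0057 there and Opalin to 0.0092 in the interaction, as a pseudocount of 0.1 did (0.00038).

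Replicate numbers are shared between groups, but mice of one number deviated from their group means with correlations of only -0.17 to 0.16, and 2 of 12 libraries correlated best with their own number. With the replicate number as a block, 0 members and 0 member transcripts were called in each comparison, and the medians were -0.26, -0.01, -0.02, 0.27, -0.13 and 0.11, as without it. With 3 mice per group, the interval for Mbp in ethanol mice, -0.82 to 0.58, includes changes in either direction.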

Other observations

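Among other cell types, the astrocyte list followed the 9 myelin genes most, with a median r of 0.66 over 6 genes across the 12 mice. Gja1, the main connexin of astrocytes, was its highest at 0.89. The astrocyte genes summed to 1412 TPM in ethanol mouse 3, their lowest. They were highest, at 1979 to 2283 TPM, in ethanol mouse 2 and ethanol + stress mice 2 and 3, the libraries with the highest sums. The part of these mice in the likeness was not tested. Microglial genes had a median r of 0.46, endothelial genes -0.15, choroid plexus genes 0.41, blood genes 0.11 and genes of hippocampal neurons -0.29. The 14 axonal partners of myelin had a median of -0.41 and ranged from -0.58 (Nfasc) to 0.08 (Lgi4). Zeb2, a transcription factor of oligodendrocyte maturation, was the lowest of its list at -0.80. Genes were picked from these lists after their values were seen, all points share the same 12 libraries, and r is given as a description.

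Genes of thalamus (49.2 to 78.3 TPM summed), striatum (83.1 to 113 TPM) and neocortex (80.2 to 106 TPM) varied less as sums than the members did, although single genes such as Zic1 (4.01 to 16.1 TPM) and Drd1 (3.72 to 12.9 TPM) varied more. None of the genes in those lists was called in a comparison with control (0 of 23, against 0.679%, 0.51% and 0.972% of all genes). Tmem119, 1 of 6 microglial genes, was called higher in the interaction (against 0.461% of all genes called in either direction, at 0.54 ± 0.16, limma, adjusted p = 1.0) and C1ql2, 1 of 12 genes of hippocampal neurons, was called lower in the averaged ethanol effect (against 1.12% in either direction, at -0.30 ± 0.09, limma, adjusted p = 0.759).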
